A study of Capra hircus with 4 samples.

Results

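Lymphatic endothelial cells of the goat pancreas are described here from 230 cells found among 17982 cells of single-cell RNA sequencing. A barcode was kept as a cell when it held at least 3000 UMIs (unique molecular identifiers, each standing for 1 captured RNA molecule) and 500 genes. A cell entered an endothelial gate when it held UMIs of at least 4 of the 12 genes PECAM1, CDH5, VWF, KDR, FLT1, ESAM, PLVAP, EGFL7, CLDN5, EMCN, TIE1 and ROBO4 and none of PTPRC or PDGFRA, which mark leukocytes and fibroblasts. Of the 466 cells in that gate, those with 5 or more UMIs of MMRN1, PROX1, LYVE1 and CCL21 in sum were called lymphatic, and the remaining 236 are called other endothelial cells below. The levels of these 18 genes in the 2 classes are therefore a consequence of the choice and are given as a description.

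The study dissociated the pancreas of 4 female Liuyang black goats with collagenase IV, dispase and DNase I, removed red blood cells and dead cells, and made 1 droplet library per animal. Of the animals, 2 were 10 days old and did not yet ruminate (the XY group), and 2 were 6 months old and ruminated (the DY group); all came from commercial farms, and the labels' protocol calls the sampled goats twins. No label ties a library number to an animal or an age, so the libraries are reported as libraries 1 to 4, no age is given to any cell, and no test was made. Values are therefore ranges over libraries of unknown age, and the intervals given are exact 95% intervals for counting error alone.

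Lymphatic capillaries take up interstitial fluid, large molecules and migrating leukocytes, and valved collecting vessels carry the lymph towards lymph nodes and the blood. Their endothelium is set apart from that of blood vessels by the transcription factor PROX1, which keeps the lymphatic fate, and by the receptor FLT4 (VEGFR3), through which the growth factors VEGFC and VEGFD drive lymphatic growth. Capillary cells secrete the chemokine CCL21, which guides dendritic cells bearing the receptor CCR7 into the vessel, and carry the hyaluronan receptor LYVE1, whereas collecting vessels and valves carry less of both.

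Lymphatic endothelial cells numbered 99, 61, 20 and 50 in libraries 1 to 4. They made up 3.09% (2.52 to 3.75) of the cells of library 1, 0.922% (0.706 to 1.18) of library 2, 0.414% (0.253 to 0.639) of library 3 and 1.50% (1.12 to 1.98) of library 4. Their share of the endothelial gate was 65.6% (57.4 to 73.1), 32.8% (26.1 to 40.0), 28.2% (18.1 to 40.1) and 86.2% (74.6 to 93.9) in the same order. Libraries 1 and 4 thus stood above libraries 2 and 3 on both measures, with intervals that did not overlap on the second. Library 4 held only 8 other endothelial cells. Tissue dissociation recovers cell types unequally, and these shares are shares of recovered cells.

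**Figure D1:**
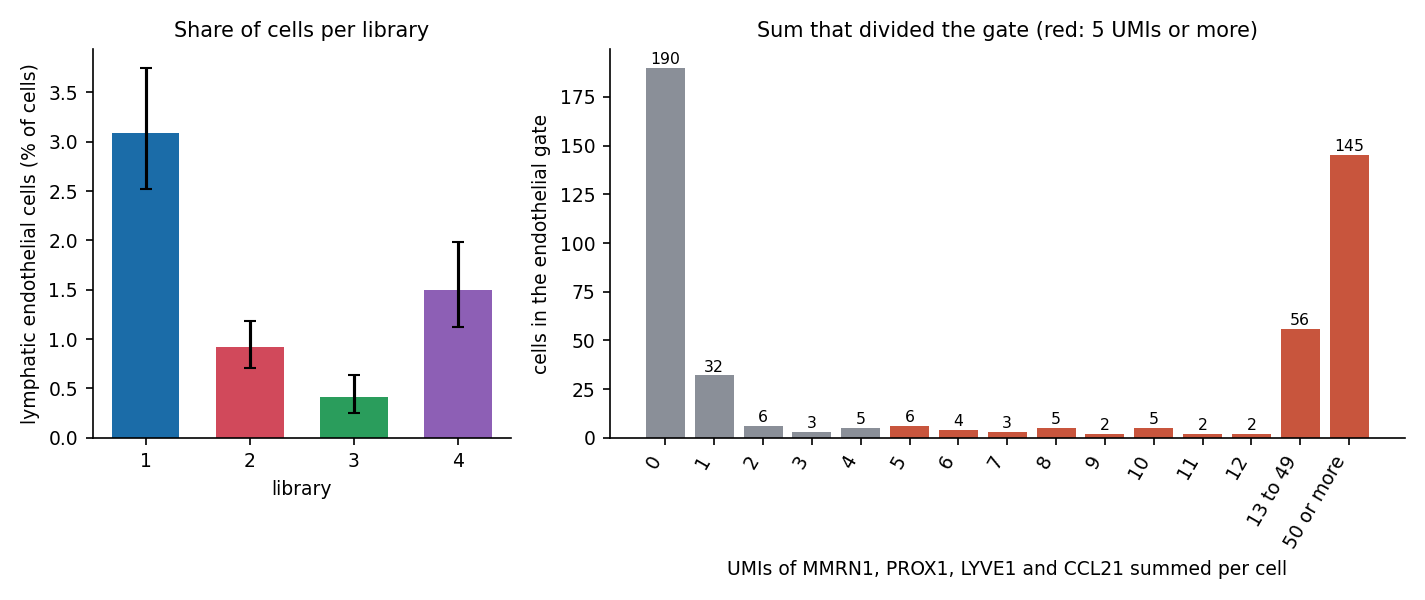
Left, lymphatic endothelial cells as a percentage of all cells in each library, with exact 95% binomial intervals as bars. Right, the number of cells in the endothelial gate at each summed UMI count of the 4 lymphatic genes, with grey bars for other endothelial and red bars for lymphatic cells; 190 cells hold none and 145 hold 50 or more, with few cells near the threshold.

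The gate divided mostly into cells without lymphatic UMIs and cells with many. Of its 466 cells, 190 held 0 UMIs of the 4 lymphatic genes, 32 held 1 and 145 held 50 or more. Just inside the threshold, at 5 to 9 UMIs, lay 20 cells, of which 11 held RELN or FLT4 and 8 held PLVAP. Just outside it, at 1 to 4 UMIs, lay 46 cells, of which 5 held RELN or FLT4 and 42 held PLVAP. All 4 lymphatic genes were seen in 157 of the 230 lymphatic cells, 3 of them in 34, 2 in 28 and 1 in 11. The rule also left cells out: 33 cells outside the gate held both MMRN1 and CCL21, and 19 cells met the endothelial and lymphatic counts but held PTPRC or PDGFRA.

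The library sizes were 43297855 to 82817057 UMIs, and the lymphatic cells held 173756 to 756067 UMIs per library. Their median depth was 5661, 7348, 5735.5 and 5627 UMIs per cell, against 5284.5, 5080, 5154 and 6640.5 in other endothelial cells. Markers of other pancreatic cells were present in some of them. Endocrine markers took 5.16%, 0.180%, 0.205% and 4.47% of the UMIs of lymphatic cells, with a median of 0.102% per cell and a highest cell of 57.4%, and acinar markers took 0.565%, 2.26%, 1.50% and 0.397%. Over 1% of UMIs came from markers of another lineage in 26 of the 230 cells, of which 14 were acinar, 8 endocrine and 4 fibroblast, and in 29 of the 236 other endothelial cells. Pericyte, macrophage and lymphocyte markers reached that level in 0 lymphatic cells. The doublet caller Scrublet marked 1, 1, 1 and 0 lymphatic cells at its automatic threshold. Among the 5% of cells with the highest scores lay 4 of 99, 3 of 61, 7 of 20 and 3 of 50 lymphatic cells. Library 3 thus had the most, and the largest part of its lymphatic cells. Without them library 3 kept 13 lymphatic cells, 0.283% of its cells against 0.414%. Only 1 lymphatic cell shared its barcode with a cell of another library, out of 68 such cells in all. The gene with most UMIs in lymphatic cells was PPY in library 1 (45011 CPM), LOC102176156 in libraries 2 and 3 (59416 and 26675 CPM) and INS in library 4 (43299 CPM). LOC102168735 ranked 2 in libraries 2 and 3 (22861 and 19113 CPM), and SYCN was at 10009 and 12397 CPM there. These LOC genes and SYCN are not on the acinar list, so the acinar shares and the 26 cells leave them out. Their source was not tested, and neither was that of PPY and INS. Hormone and digestive enzyme genes in lymphatic cells are therefore given as a description only.

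The cells also carried RELN and FLT4, the lymphatic markers that the rule did not use. These markers were chosen with earlier results of these data known. Their levels are thus a description and no independent support of the label. RELN encodes reelin, a matrix protein secreted by lymphatic endothelium. Its level was 581 (528 to 638), 375 (328 to 426), 345 (264 to 444) and 520 (448 to 600) counts per 1000000 UMIs (CPM) in lymphatic cells of libraries 1 to 4. In other endothelial cells it was 12.9, 5.12, 0 and 0 CPM, and in stromal cells at most 0.138 CPM. FLT4 stood at 380 (337 to 426), 256 (218 to 299), 426 (334 to 535) and 428 (363 to 501) CPM in lymphatic cells, against 32.1, 14.3, 13.9 and 0 CPM in other endothelial cells. For both genes every library's lymphatic value lay above those of other endothelial, stromal, epithelial and immune cells. At least 1 UMI of RELN or FLT4 was found in 82.0% to 96.0% of lymphatic cells over the 4 libraries, in 0% to 13.5% of other endothelial cells, and in 0.201% to 0.601% of cells outside the gate.

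The genes of the rule followed the same pattern by construction. CCL21 stood at 16936, 10362, 5847 and 14978 CPM in lymphatic cells and was among the 10 genes with most UMIs there in libraries 1, 2 and 4. In other endothelial cells it was at 9.64, 1.02, 0 and 0 CPM. In barcodes of 10 to 100 UMIs, which hold mostly free RNA, CCL21 was at 198, 75.6, 17.6 and 42.5 CPM. MMRN1, which encodes the secreted multimerin 1, was at 3037, 2250, 1588 and 2611 CPM in lymphatic cells. LYVE1 was at 2210, 1000, 679 and 3775 CPM, the widest spread over libraries of the 4, and it was also present in the immune gate at 150, 105, 344 and 63.5 CPM, as is known for tissue macrophages. PROX1 was at 997, 908, 1249 and 1149 CPM in lymphatic cells. PROX1 was not particular to them: epithelial cells, defined by at least 2 UMIs of EPCAM, carried 66.1, 63.7, 59.6 and 85.3 CPM.

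**Figure D2:**
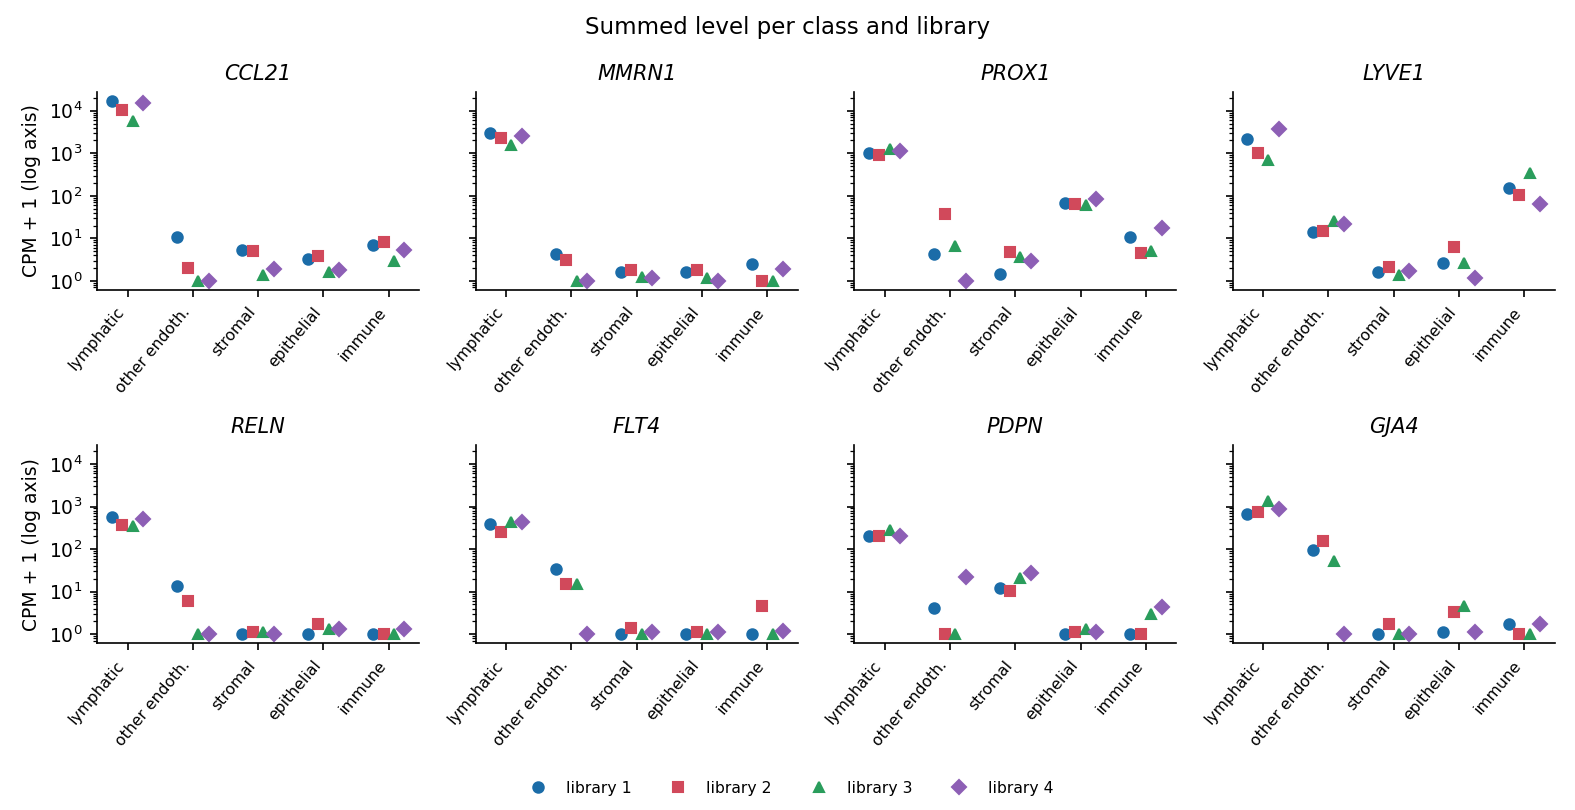
Summed level (CPM + 1, log axis) of 8 genes in 5 classes of cells, with 1 point per library. CCL21, MMRN1, PROX1 and LYVE1 chose the cells, RELN, FLT4, PDPN and GJA4 did not; RELN lies at 345 to 581 CPM in lymphatic cells and at 12.9 CPM or below in other endothelial cells.

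To set cells of unequal depth side by side, every cell was thinned to 3000 UMIs. RELN was then detected in 67.0% of lymphatic cells (60.5 to 73.0), 1.27% of other endothelial cells and 0.129% of epithelial cells, and in 83.9% of lymphatic cells without thinning. FLT4 was detected in 62.2% (55.6 to 68.5) against 4.66% and 0%, and in 77.8% without thinning. CCL21, a gene of the rule, was detected in 74.3% (68.2 to 79.9) of lymphatic cells. It was detected in 1.27% of other endothelial and 0.772% of epithelial cells. The rule kept CCL21 low in other endothelial cells, so their share is no measured background. In lymphatic cells the share was 79.8%, 54.1%, 85.0% and 84.0% over libraries 1 to 4, so library 2 stood below the others. Podoplanin (PDPN), a membrane glycoprotein of lymphatic endothelium, was detected in 46.5% (39.9 to 53.2), against 0.847% of other endothelial cells.

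The question of how lymphatic cells differ from the rest of the pancreatic endothelium was addressed inside each library. UMIs were summed over the cells of each class, and the log2 ratio of lymphatic to other endothelial cells was taken on CPM + 10, a scale on which differences of genes with few counts come out smaller. The word higher is used of a gene whose log2 ratio was at least 1, and lower of a gene at -1 or less, in each library with 10 or more cells of both classes, which were libraries 1 to 3. Of 8911 genes with at least 30 UMIs, 281 (3.15%) were called higher in lymphatic cells and 247 (2.77%) lower, with 18 rule genes set aside. These shares are the background for every count of list genes in this comparison. Below, a log2 ratio is the median of the 3 libraries with its lowest and highest value.

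The lymphatic identity list, which was chosen with earlier results of these data known, had 14 of 24 measured genes called higher and 0 called lower, with a median log2 ratio of 1.78 against 0.00 for all genes tested. Transcription factors led it. NR2F1, an orphan nuclear receptor, stood at 1559, 603 and 852 CPM in lymphatic cells of libraries 1 to 3 and at 48.2, 8.20 and 0 CPM in other endothelial cells, a log2 ratio of 5.07 (4.75 to 6.43). TBX1, a T-box factor that lymphatic vessels need in development, was at 216, 171 and 178 CPM against 3.21, 3.07 and 0 (4.09, 3.79 to 4.24). MAF, another lymphatic transcription factor, had a ratio of 3.77 (3.76 to 4.15). Groups did not overlap for any of these, which large ratios in every library make likely and which adds little to the calls. By contrast SOX18, which switches PROX1 on in the embryo, stood at 755, 755 and 570 CPM in lymphatic and 980, 383 and 376 CPM in other endothelial cells and was not called (0.59, -0.37 to 0.96). NR2F2, a venous and lymphatic partner of PROX1, was also not called (0.88, 0.84 to 0.89).

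Among surface and secreted products of that list, RELN had a log2 ratio of 4.69 (4.67 to 5.15) and PDPN of 4.38. PDPN was at 201, 198 and 282 CPM in lymphatic cells of libraries 1 to 3 against 3.21, 0 and 0 CPM. Also called higher were PKHD1L1 (3.19), SEMA3D, a secreted guidance cue (2.74), SNCG (2.40), KLHL4 (2.21), PPFIBP1 (1.89) and TSHZ2 (1.55). FXYD6 missed the rule in a single library (1.34, 0.96 to 1.91). Markers known from lymphatic endothelium of other tissues were nearly missing: STAB2, a hyaluronan scavenger receptor of lymph node sinuses, had 0, 2, 0 and 0 UMIs in lymphatic cells, and TFF3, a trefoil factor, had 1, 0, 0 and 0. The epithelial gate carried TFF3 at 67.9 to 318 CPM.

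In the VEGF pathway the receptor FLT4 and its co-receptor NRP2 were higher in lymphatic cells, and NRP1 was lower. Of 14 measured genes of the pathway, 4 were called higher and 2 lower, against 3.15% and 2.77% of all genes. FLT4 had a log2 ratio of 3.45 (3.21 to 4.19). Its co-receptor NRP2 was at 319, 240, 368 and 517 CPM in lymphatic cells and 77.1, 77.9, 80.8 and 82.9 CPM in other endothelial cells (1.92, 1.51 to 2.06). ITGA9, an integrin of lymphatic valves (2.07), and the phosphatase PTPN14 (2.15) were higher too. The other neuropilin went the opposite way: NRP1, a co-receptor for VEGFA, was at 1.32, 12.8 and 11.5 CPM in lymphatic cells against 459, 309 and 340 CPM (-4.02, -5.37 to -3.80). Neither neuropilin overlapped between the classes, which again adds little to the calls. The VEGFA receptor KDR, a gene of the rule, remained at 282, 134, 311 and 277 CPM in lymphatic cells, whereas FLT1, also of the rule, stood at 1.32, 4.80, 28.8 and 0 CPM.

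The ligands VEGFC and VEGFD stood at larger levels in stromal than in lymphatic cells. Against all cells outside the gate, VEGFD was called lower in lymphatic cells and VEGFC was not. VEGFC was at 0, 12.8, 11.5 and 2.80 CPM in lymphatic cells and at 144, 88.5, 60.7 and 126 CPM in stromal cells, defined by at least 2 UMIs of PDGFRA. VEGFD was at 1.32, 8.0, 0 and 2.80 CPM in lymphatic cells and at 222, 121, 93.0 and 265 CPM in stromal cells. CCBE1, which helps to process VEGFC, had 0 UMIs in lymphatic cells of all 4 libraries and stood at 19.2 to 25.3 CPM in stromal cells, and the VEGFC protease ADAMTS3 was at 2.01 to 14.4 CPM there. SVEP1, a matrix protein needed for lymphatic remodelling, was at 167 to 269 CPM in stromal cells and at most 4.80 CPM in lymphatic cells. All 4 stromal levels of VEGFC, VEGFD, CCBE1 and SVEP1 were above those of every lymphatic library.

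In the angiopoietin and BMP list 1 of 15 genes was called higher and 3 lower, against 3.15% and 2.77% of all genes. ANGPT2, a Tie2 ligand made by endothelium, was at 184, 91.2 and 161 CPM in lymphatic cells against 6.43, 33.8 and 8.36 CPM in other endothelial cells (3.22, 1.21 to 3.56). In stromal and immune cells ANGPT2 stood at 0.209 CPM or below. ENG, a co-receptor for BMP9, was lower, at 62.2, 117 and 132 CPM against 1089, 685 and 842 CPM (-2.58, -3.93 to -2.45). PTPRB, the phosphatase that restrains Tie2, was also lower (-1.90), as was SMAD7, an inhibitor of the pathway, with 2 UMIs in lymphatic cells and 96 in other endothelial cells of libraries 1 to 3 (ratio 45.3, 12.2 to 380, counting interval). The Tie2 receptor TEK was not called (-0.41, -1.59 to -0.39).

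The chemokines split between the classes. Among 23 measured genes of leukocyte traffic, 4 were called higher and 7 lower, with the rule gene CCL21 not counted. CXCL12, which binds CXCR4, was at 5.29 (1.44 to 13.5), 68.8 (49.8 to 92.7), 23.0 (6.27 to 58.9) and 2.80 (0.0708 to 15.6) CPM in lymphatic cells. Other endothelial cells carried CXCL12 at 646, 651, 270 and 394 CPM and stromal cells at 985, 769, 579 and 645 CPM, so lymphatic cells were the lowest of the 3 in every library. CX3CL1, a membrane-bound chemokine, had 3 UMIs in lymphatic cells and 86 in other endothelial cells of libraries 1 to 3, a ratio of other to lymphatic of 27.1 (8.96 to 134, counting interval). The chemokine-binding receptor ACKR1 of venules had 3 against 109 UMIs (34.3, 11.4 to 169), and SELP, which lets leukocytes roll, was at 0, 35.2 and 28.8 against 186, 123 and 134 CPM.

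Called higher in the same list were MRC1, the mannose receptor of lymphatic endothelium and macrophages, PTX3, a secreted pattern recognition protein, CCL5 and CD200. MRC1 was at 52.9, 99.2, 115 and 53.1 CPM in lymphatic cells and had 1 UMI in other endothelial cells. It was detected in 21.7% (16.6 to 27.6) of thinned lymphatic cells and in 0% of epithelial cells. All macrophage markers together, MRC1 included, took 0.0152% to 0.0198% of the UMIs of lymphatic cells. Their share was 0.00195% to 0.0112% in other endothelial cells and 0.0107% to 0.146% in cells outside the gate. PTX3 was at 13.2, 59.2, 51.8 and 25.2 CPM and was detected in 7.83% of thinned cells, levels too low to tell how many cells carried it. CCL5 was uneven, at 254, 28.8, 69.1 and 2.80 CPM over the libraries. Only 20 of the 230 lymphatic cells held CCL5, 9 of 99 in library 1, where the highest cell had 82 UMIs. CD200, an inhibitory ligand for myeloid cells, had a log2 ratio of 1.88 (1.52 to 2.63). CCR7, the receptor for CCL21, had 0 UMIs in lymphatic cells and stood at 0.730, 0, 1.97 and 7.66 CPM in the immune gate, and CCL19, its other ligand, was at 0.718 to 8.58 CPM in stromal cells and had 0 UMIs in lymphatic cells.

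Of 21 measured genes of valves and collecting vessels, 9 were called higher and 0 lower, with a median log2 ratio of 0.56. GJA4 (connexin 37), a gap junction protein of valve cells that is also present in arteries, stood at 679, 760 and 1381 CPM against 96.4, 157 and 50.2 CPM (2.69, 2.21 to 4.53). GJA1 (connexin 43) was at 352, 218 and 426 against 48.2, 56.4 and 30.7 CPM (2.64). CLDN11, a claudin of lymphatic valves, had a ratio of 3.66 (1.91 to 5.15), and the valve transcription factor FOXC2 one of 1.68 (1.60 to 2.74). SEMA3A, CELSR1, CD24, NEO1 and ITGA9 were the remaining calls. CD24 needs care, since it was detected in 37.1% of epithelial cells against 20.4% of lymphatic cells, and the part of free or doublet RNA in its ratio was not tested. FOXC2 was detected in 10.4% (6.80 to 15.1) of lymphatic cells and in 0% of epithelial cells.

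**Figure D3:**
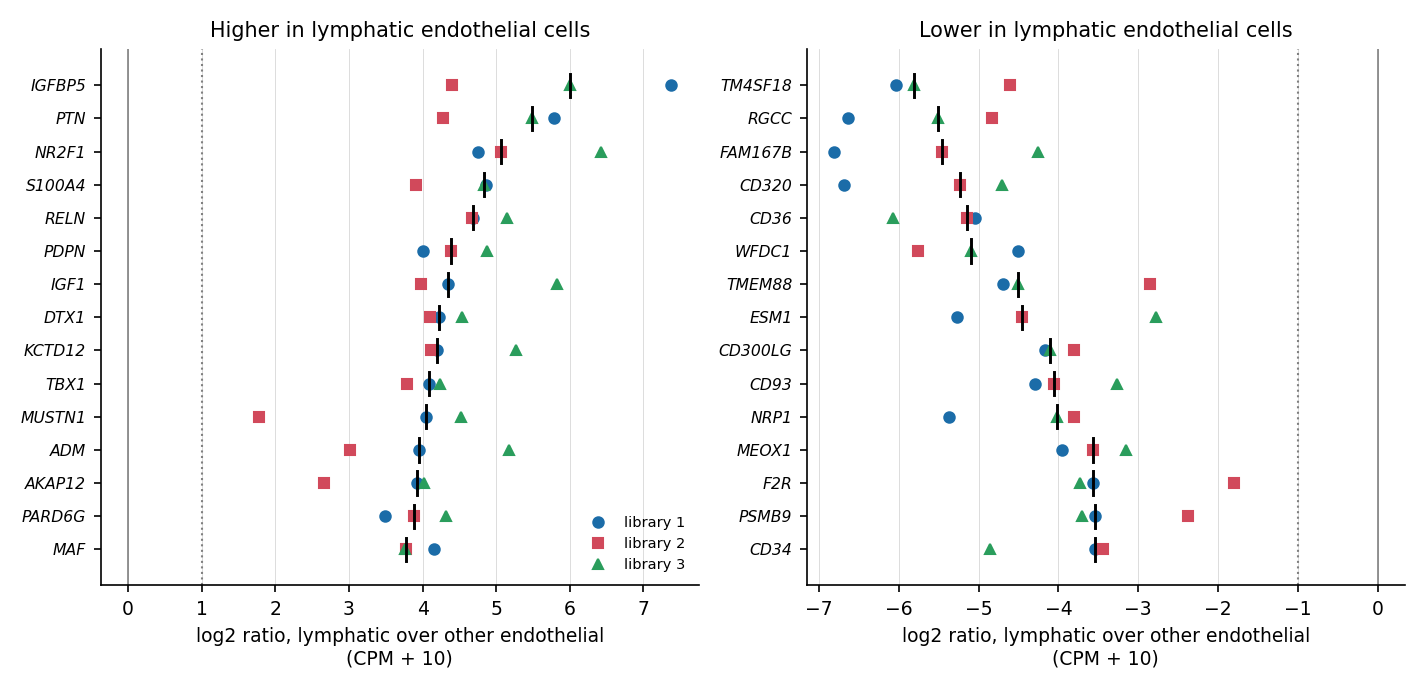
Log2 ratio (CPM + 10) of lymphatic over other endothelial cells for the 15 called genes with the highest and the 15 with the lowest median, with 1 point per library, the median as a black bar and the call threshold as a dotted line. IGFBP5 reaches a median of 6.00 and TM4SF18 one of -5.81; library 4 is not drawn because it held 8 other endothelial cells.

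Of the called genes with a symbol and outside the rule, IGFBP5, a binding protein for insulin-like growth factors, had the highest ratio on the CPM + 10 scale. With a pseudocount of 1 CPM PDPN stood above it (7.64 against 6.36), and on the mean of per-cell CPM PTN did (5.96 against 5.57). It was at 3787, 3201 and 2596 CPM in lymphatic cells of libraries 1 to 3 and at 12.9, 142 and 30.7 CPM in other endothelial cells (6.00, 4.40 to 7.38). It was not particular to lymphatic cells, since stromal cells carried 1951, 2145, 825 and 2695 CPM. PTN, the secreted growth factor pleiotrophin, was at 4453, 2726 and 4414 CPM against 70.7, 131 and 89.2 CPM (5.48, 4.28 to 5.79), and was detected in 96.1% (92.7 to 98.2) of thinned lymphatic cells. Stromal cells carried PTN at 63.2 to 882 CPM, below the lymphatic level of each library. IGF1, insulin-like growth factor 1, was at 323, 325, 719 and 587 CPM in lymphatic cells and 357, 339, 394 and 456 CPM in stromal cells, while other endothelial cells had 11.3 CPM or less (4.34, 3.98 to 5.83). Its receptor IGF1R was at 102 to 154 CPM in lymphatic cells and at 71.4 to 201 CPM in epithelial cells.

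ADM, the vasoactive peptide adrenomedullin, was higher in lymphatic cells, at 394, 312 and 351 against 16.1, 29.7 and 0 CPM (3.95, 3.02 to 5.17). Library 4 had less ADM, at 78.3 CPM. Its receptor CALCRL was not called and was at 86.0, 102, 196 and 162 CPM in lymphatic cells against 350, 233, 268 and 414 CPM in other endothelial cells. The receptor's partner RAMP2 was at 1847 to 2766 CPM in lymphatic and 1628 to 2798 CPM in other endothelial cells. WNT2, a WNT ligand, had 73 UMIs in lymphatic cells of libraries 1 to 3 and 0 in other endothelial cells, which is at least 25.8-fold higher with a floor of 3 counts over the group. S100A4, a calcium-binding protein (4.84, 3.91 to 4.86), KCTD12 (4.19), DTX1, a regulator of Notch (4.22), AKAP12, a kinase anchor (3.92), PARD6G, a polarity protein (3.89), and MUSTN1 (4.04, 1.78 to 4.52) were the other named genes. With cells down to 1000 UMIs, library 4 reached 22 other endothelial cells and entered the comparison. The calls of IGFBP5, S100A4 and ADM were then lost, with medians of 3.04, 2.84 and 2.48 and library 4 at 0.94, -0.49 and -0.26. In libraries 1 to 3 alone these cells kept all 3 calls at smaller ratios (3.88, 3.59 and 2.77), an alternative chosen after seeing the data. S100A4 also lost its call when the 5% of cells with the highest doublet scores were removed (3.88).

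IGF2, the other insulin-like growth factor and an imprinted gene, went against IGF1. It was at 0 (0 to 4.88), 245 (208 to 287), 201 (140 to 280) and 28.0 (13.4 to 51.4) CPM in lymphatic cells of libraries 1 to 4 and at 787, 1274, 691 and 2983 CPM in other endothelial cells. The ratio was -2.33 (-6.32 to -1.73). Libraries 2 and 3 stood above libraries 1 and 4 in lymphatic cells. Fibroblast markers took 0.230% of UMIs of lymphatic cells in each of libraries 2 and 3, and 0.0126% and 0.0190% in libraries 1 and 4, and stromal IGF2 was at 1088, 5389, 2468 and 636 CPM. The part of fibroblast RNA in these values was not tested. Altogether 4 of 23 growth factor genes were called higher and 5 lower, the others being IGF2R, IGFBP7, PDGFB and CTGF.

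Genes of blood vessels were lower in lymphatic cells in 17 of 36 cases and higher in 2, with a median log2 ratio of -1.46. PLVAP, the diaphragm protein of fenestrated capillaries and a rule gene, was at 5.29, 101 and 219 CPM against 8516, 2059 and 2963 CPM. RGCC was at 5.29, 19.2 and 0 CPM against 1513, 819 and 446 CPM (-5.51, -6.64 to -4.83). ESM1, a tip cell proteoglycan, had 0 UMIs in lymphatic cells and 343 in other endothelial cells of libraries 1 to 3, at least 108-fold lower with a floor of 3 counts over the group. CD300LG, a receptor of capillary and venous endothelium, had 2 against 281 UMIs, a ratio of other to lymphatic cells of 133 (36.4 to 1101, counting interval). With cells down to 1000 UMIs its median log2 ratio was -4.23 against -4.10, and its call was lost through library 4 (0.00), which then entered; libraries 1 to 3 kept it. CD34, the sialomucin of capillaries, was at 45.0, 41.6 and 11.5 CPM against 630, 551 and 616 CPM (-3.54, -4.86 to -3.44). The arterial genes SOX17 (-2.52) and JAG1 (-2.12), the apelin receptor APLNR (-3.33) and the water channel AQP1 (-2.48) were lower too, while NOTCH1 (1.58, 1.06 to 1.67) and the netrin receptor UNC5B (2.91, 2.29 to 4.33) were higher.

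Of all called genes with a symbol and outside the rule, the lowest ratios on the CPM + 10 scale were those of TM4SF18 (-5.81) and RGCC. FAM167B (-5.46), CD320, a receptor for vitamin B12 carrier protein (-5.23), and CD36, a fatty acid receptor (-5.15), came next. TM4SF18 was at 1.32, 6.40 and 0 CPM in lymphatic cells against 736, 387 and 552 CPM. WFDC1 had 0 UMIs in lymphatic cells and 707 in other endothelial cells of libraries 1 to 3, at least 223-fold lower. TMEM88 (-4.50), CD93 (-4.05), MEOX1 (-3.56) and the thrombin receptor F2R (-3.56, -3.73 to -1.80) were the remaining named genes. With cells down to 1000 UMIs F2R had a median of -2.72 and lost its call through library 4 (0.60), which then entered, and kept it in libraries 1 to 3 (-3.64). Of 17 junction genes 0 were higher and 1 was lower, JAM2 (-2.79), shares near those of all genes (3.15% and 2.77%). CDH5, the adhesion molecule VE-cadherin and a rule gene, was at 231, 230, 437 and 282 CPM in lymphatic and 315, 275, 387 and 373 CPM in other endothelial cells.

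**Figure D4:**
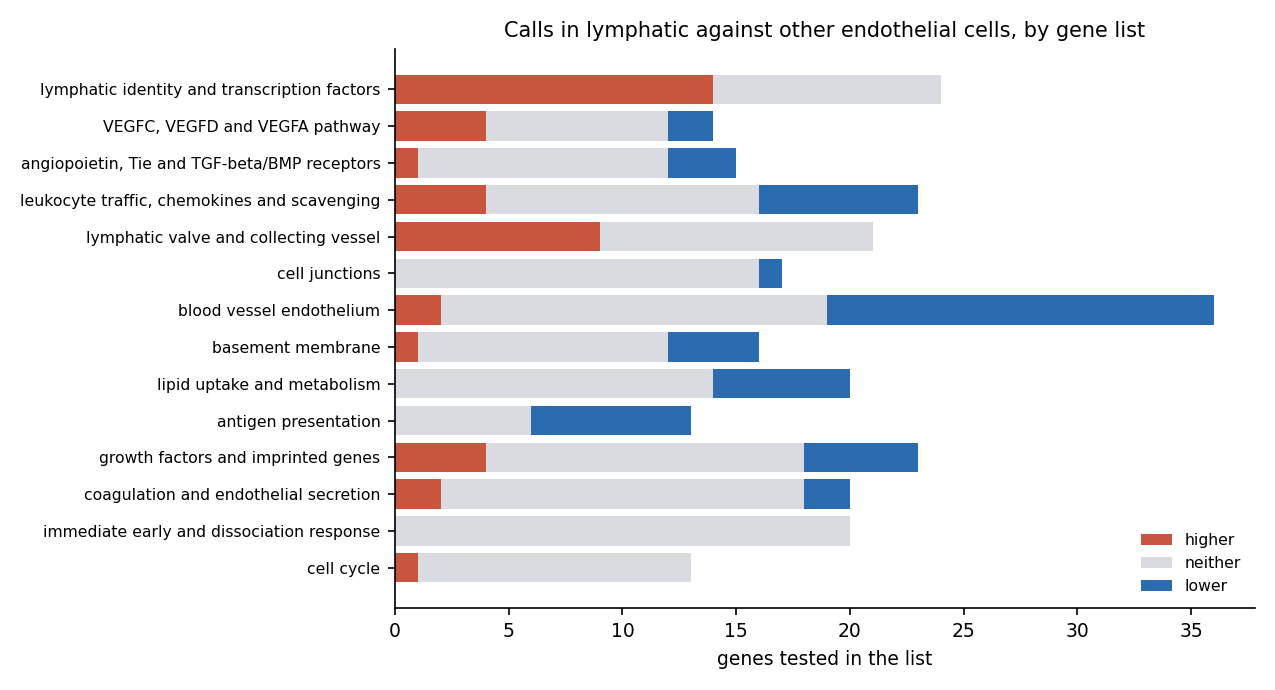
Number of measured genes in each of 14 lists that were called higher (red), lower (blue) or neither (grey) in lymphatic against other endothelial cells. Lymphatic identity has 14 of 24 genes higher, blood vessel endothelium 17 of 36 lower and antigen presentation 7 of 13 lower; over all genes 3.15% were higher and 2.77% lower.

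Antigen presentation was lower in 7 of 13 measured genes and higher in none (0 of 13), with a median log2 ratio of -1.45. B2M, the light chain of MHC class I, was at 1410, 1703 and 1111 CPM in lymphatic cells against 8452, 5386 and 5482 CPM (-2.29, -2.58 to -1.66). PSMB9, a subunit of the immunoproteasome, was at 26.5, 60.8 and 23.0 against 414, 357 and 424 CPM (-3.54), and its partners PSMB8 (-2.63) and PSMB10 (-1.56) followed. TAP1, the peptide transporter (-1.21), IRF1, an interferon response factor (-1.42), and CD74, the MHC class II chaperone (-3.54, -5.38 to -1.38), were lower as well. The list's count in this class comparison stood well above the 2.77% background. Other endothelial values did not overlap the lymphatic ones for B2M or PSMB9 in these libraries, which adds little to their calls. The low values hold against other endothelial cells only. Against cells outside the gate 1 of 16 genes was higher and 1 lower, with a median log2 ratio of 0.39. Of all genes 3.80% were higher and 1.73% lower in that comparison.

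Of 20 lipid genes, 6 were lower and 0 higher, against 2.77% and 3.15% of all genes, although the list's median was -0.08. The 6 were CD36, FABP5, GPIHBP1, which anchors lipoprotein lipase on capillaries, SCARB1, the receptor for high-density lipoprotein, APOE and APOA1. FABP5, a fatty acid-binding protein, was at 307, 355 and 552 CPM against 1449, 2480 and 3146 CPM (-2.49, -2.77 to -2.20). CD36 was at 0, 8.0 and 0 CPM against 321, 631 and 663 CPM. The caveolar gene CAV1 was at 1069, 589 and 501 against 777, 462 and 376 CPM and was not called (0.40). For APOA1 and APOE, free RNA from other cells was not tested.

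Of 16 basement membrane genes, 4 were lower and 1 was higher, against 2.77% and 3.15% of all genes. SPARC was at 3.97, 184 and 196 CPM against 681, 1202 and 973 CPM (-2.64, -5.63 to -2.26), with SPARCL1 (-2.95), COL15A1 (-2.73) and HSPG2, perlecan (-1.46), also lower. COL4A5 was higher (2.02, 1.92 to 3.51) and COL4A1 was not called (-0.61). Of 20 genes for coagulation and secretion, TFPI, the inhibitor of tissue factor (2.09, 1.70 to 3.56), and TIMP2, an inhibitor of matrix proteases (3.74, 3.63 to 4.76), were higher, and MMRN2 (-2.93) and ECM1 (-3.01) lower. TIMP2 was at 1984, 1223 and 1623 CPM in lymphatic cells against 151, 82.0 and 50.2 CPM. VWF, a rule gene, was detected in 24.3% of thinned lymphatic cells and 83.5% of other endothelial cells. The coagulation factor F8 was at 303, 190 and 138 against 116, 91.2 and 80.8 CPM and missed the rule (0.99, 0.71 to 1.32).

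Immediate early genes, which respond to dissociation, had 0 of 20 calls either way. That is near the shares of all genes (3.15% higher and 2.77% lower), and whether the response was equal was not tested. FOS was at 2411, 770 and 489 CPM in lymphatic and 1500, 830 and 295 CPM in other endothelial cells (0.68, -0.11 to 0.71). Of 13 cell cycle genes, 1 was called higher, TOP2A, at 25.1, 81.6 and 403 CPM against 0, 5.12 and 192 CPM (1.81, 1.03 to 2.60). MKI67, the usual proliferation marker, was at 0, 3.20 and 167 CPM against 0, 0 and 109 CPM, so its UMIs lay almost all in library 3 in both classes.

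Against the tissue outside the endothelial gate, of 16681 genes 634 (3.80%) were called higher and 289 (1.73%) lower over all 4 libraries. The 10 highest that the rule had not used were GJA4, SOX18, NR2F1, SDPR, RELN, S1PR1, ECSCR, FLT4, KANK3 and TNFAIP8L3. GJA4 had a log2 ratio of 6.20 (5.97 to 6.81) and SOX18 of 6.00 (5.72 to 6.20). S1PR1, the receptor for sphingosine 1-phosphate, was at 811, 455, 409 and 805 CPM in lymphatic cells against 2.00, 3.97, 1.87 and 6.33 CPM outside (5.39, 5.06 to 6.10). Against other endothelial cells S1PR1 was not called (0.26, -0.05 to 0.43), and SOX18 was not either, so these are shared endothelial genes in the data. SPNS2, which exports sphingosine 1-phosphate, was at 35.7, 43.2, 80.6 and 33.6 CPM in lymphatic cells and at 3.30 CPM or below in the stromal gate. The identity list had 21 of 24 genes higher and 3 lower, TFF3 and EFEMP1 among the latter.

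The lymphatic cells were not uniform. CCL21 had 0 UMIs in 50 of the 230 cells, a median of 46.5 and a 90th percentile of 285, and the highest cell held 1547. MMRN1 varied less, with 0 UMIs in 17 cells, a median of 16 and a 90th percentile of 44.0. LYVE1 was at 0 in 41 cells and PDPN in 76. Library 2 held 23 of the 50 cells without CCL21 and 10 of the 17 without MMRN1. The 20 cells just inside the threshold, 9 of them in library 2, made up 17 of the 50 and 13 of the 17, and 8 of the 20 held PLVAP.

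To describe cells with a valve gene, the lymphatic cells were divided by whether a CLDN11 UMI remained after thinning to 3000 UMIs. This split, and the choice of the genes named with it other than list genes, was made after the values had been seen. Such cells numbered 24, 14, 5 and 12 in libraries 1 to 4, which is 24.2%, 23.0%, 25.0% and 24.0% of the lymphatic cells. CLDN11 was detected in 3.81% of other endothelial and 0% of epithelial cells. In libraries 1, 2 and 4, which held at least 10 cells of both kinds, 48 of 6789 genes (0.707%) were higher with CLDN11 and 12 (0.177%) lower. Of these, 20 higher and 4 lower genes were called again under all 6 alternatives run for the split, and the total counts moved more, as given further on. Leaving out a library can lose a call only through the minimum number of UMIs, and a pseudocount of 1 CPM cannot lose one. Repeats under these settings therefore say little about a gene.

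Genes higher with CLDN11 under all 6 alternatives included ADM, S100A4, SBSPON, NEO1, GJD3, CD24, IGFBP5, GATA2, FN1 and SEMA3A. ADM was at 1268, 1476, 1025 and 241 CPM in cells with CLDN11 against 48.0, 82.4, 8.68 and 19.1 CPM in those without (4.01, 3.11 to 4.46). S100A4 was at 3493, 5699, 4476 and 1585 against 312, 134, 69.4 and 221 CPM (3.44, 2.79 to 5.31). SBSPON, a secreted somatomedin and thrombospondin protein, was at 392, 718, 495 and 430 against 31.4, 13.4, 8.68 and 34.3 CPM (3.31). IGFBP5 was at 7559, 12077, 5723 and 7136 against 2293, 1449, 1007 and 1235 CPM (2.52, 1.72 to 3.05). For all 4 genes the difference ran the same way in every library, library 3 with its 5 cells included.

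Of the 19 valve genes measured, 5 were higher with CLDN11 and 0 lower: GATA2, the upstream factor of the valve programme (1.76, 1.51 to 2.04), FN1, the fibronectin of the valve core (1.64), SEMA3A (1.33), CD24 (2.77) and NEO1 (3.31). FOXC2 was at 173, 117, 51.2 and 42.0 CPM against 11.1, 19.2, 17.4 and 34.3 CPM and was not called (2.12, 0.23 to 3.11), because library 4 differed little. GJA4 was also not called (1.42, 0.52 to 1.98), nor was ITGA9 (-0.02, -0.25 to 0.24). TOP2A was called (2.44) and MKI67 was seen in 0, 0, 2 and 0 such cells.

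Among the 12 genes lower with CLDN11 was LYVE1, which like CCL21 had helped to choose the cells. LYVE1 was at 1268, 437, 666 and 1553 CPM with CLDN11 and 2583, 1112, 686 and 4582 CPM without, and was called lower (-1.33, -1.55 to -1.02); library 3 showed almost no difference. CCL21 was at 10282, 350, 2836 and 6286 against 19571, 12339, 7377 and 18135 CPM (-1.53, -5.10 to -0.93), lower in all 4 libraries but past the threshold only in libraries 2 and 4 of the 3 used. CCL21 had 0 UMIs in 10, 10, 1 and 6 of the 24, 14, 5 and 12 cells with CLDN11, and in 7, 13, 1 and 2 of the 75, 47, 15 and 38 without. AQP1 (-2.58, -2.60 to -2.15) and LOC100861279, listed by RefSeq as adipocyte fatty acid-binding protein (-1.60, -3.32 to -1.24), were lower. MMRN1 (-0.75) and PDPN (-0.39) were not called. Median depths of the cells with CLDN11 were 5383.5, 5077, 8156 and 6951 UMIs, against 5670, 8097, 5585 and 5469 in those without, and 3 of the 55 cells with CLDN11 held over 1% of markers of another lineage.

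**Figure D5:**
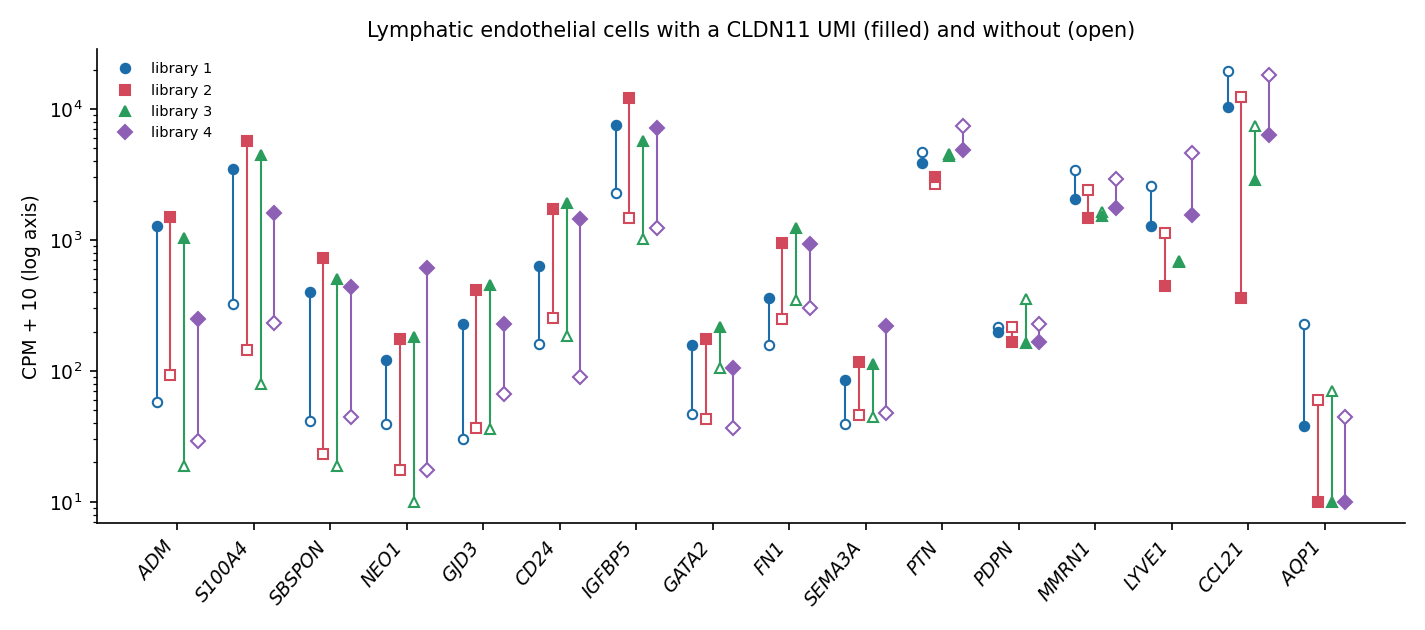
Level (CPM + 10, log axis) of 16 genes in lymphatic endothelial cells with a CLDN11 UMI (filled) and without (open), joined within each library. ADM, S100A4, SBSPON and IGFBP5 are higher with CLDN11 in all 4 libraries and CCL21 is lower, from -5.10 to -0.93 on the log2 scale in libraries 1, 2 and 4; library 3 is drawn but was not used for the calls because it held 5 cells with CLDN11.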

How the data were processed

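The authors deposited whole UMI counts per gene and barcode in a single unfiltered matrix of 27137 genes that pools 4 libraries, made with 10x 3' chemistry per the labels' protocols. Per the submitters' processing notes, Seurat 3.1.1 and Cell Ranger 3.1.0 were used, whereas the matrix header gives Cell Ranger 5.0.1. The genome build is not given in the sources used here, and whether the libraries were thinned to equal depth is not given either. Gene names are those of the deposited feature list, of whose IDs 27103 matched the RefSeq table of assembly ARS1.2.

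UMIs were summed per class and library and scaled to 1000000 (CPM) in Python 3.11.15 with numpy 2.4.6 and scipy 1.17.1. The rule for calls, the minimum of 30 UMIs and the pseudocount of 10 CPM are those given with the results. Doublets were scored with Scrublet in scanpy 1.11.5 and were not removed. No edgeR test of age was run, because no library could be tied to an age. Of 358 genes in 14 function lists, 339 were matched by symbol. The cells and lists were chosen with earlier results of these data known. Named genes are the 15 called with the highest and the 15 with the lowest median log2 ratio against other endothelial cells, the 10 highest against cells outside the gate (LOC symbols left out), list genes, the markers and genes among the 10 with most UMIs. Alternatives changed the depth minimum, pseudocount, scaling, gene minimum, threshold, doublets and libraries used. No sequences were used here. Some genes of the lists are not reported here by name.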

Additional observations from a re-analysis of the deposited data

How the results depend on the processing

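Against other endothelial cells, a pseudocount of 50 CPM left 90 genes higher and 83 lower, and a minimum of 100 UMIs per gene left 185 higher. Leaving out each library in turn gave 311 to 337 higher and 295 to 314 lower, with 231 to 273 and 222 to 241 of them shared with the full set. Against cells outside the gate, a pseudocount of 1 CPM gave 1034 higher and 1007 lower, and one of 50 CPM gave 262 and 73. With cells down to 1000 UMIs the share of lymphatic cells in library 4 was 0.982%. Without thinning, PROX1 was seen in 93.5%, RELN in 83.9% and FLT4 in 77.8% of lymphatic cells, against 85.7%, 67.0% and 62.2% with it. In the split by CLDN11, whose alternatives were chosen after seeing the data, requiring 2 or more CLDN11 UMIs in the full counts gave 79 higher and 51 lower, a pseudocount of 1 CPM gave 40 lower, and leaving out each library in turn gave 49 to 115 higher and 47 to 60 lower. The count without library 4 was 115 higher. The lower genes of this split therefore depended on the setting. FOXC2 passed the threshold without library 4 (2.62) and CCL21 without library 1 (-3.31). No median changed sign under the alternatives run. Among the 30 genes named against other endothelial cells 564 of 570 repeats kept the call. That count does not measure stability, because several settings could hardly lose a call. Leaving out a library, a pseudocount of 1 CPM and no minimum count only loosen the rule for such genes. The calls lost were IGFBP5, S100A4, ADM, CD300LG and F2R with cells down to 1000 UMIs, and S100A4 without the highest doublet scores. Lymphatic cells of library 3 numbered 20 and other endothelial cells of library 4 numbered 8, which limits what can be seen there. No paired analysis was possible because the library numbers in the barcodes carry no replicate number of the labels; this concerns the ages. The classes of cells were compared within each library, with no test, since the same RNA had chosen the cells.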

Other observations

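Outside the named genes, GPR182, an endothelial receptor that scavenges chemokines, was looked at after its value was seen. It stood at 92.6, 80.0, 115 and 58.7 CPM in lymphatic endothelial cells and had 0 UMIs in other endothelial, epithelial and immune cells. In stromal cells GPR182 was at 0.414 CPM or below. IL7, a survival factor for lymphocytes, was at 22.5, 8.0, 17.3 and 50.3 CPM in lymphatic cells and at 3.21 CPM or below in other endothelial, stromal, epithelial and immune cells. These levels were low, and IL7 was called higher neither against other endothelial cells nor against cells outside the gate. Genes higher in lymphatic cells with CLDN11 under all 6 alternatives also included SEMA3E (1.74), a guidance cue, the transcription factor IRX5 (2.26) and the scavenger receptor COLEC12 (1.81), chosen after their values were seen.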
